A study of Rattus norvegicus with 8 samples.

Results

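The genes described here are the receptor tyrosine kinase gene Kit with its ligand gene Kitlg, the 4 genes of the ErbB receptor family (Egfr, Erbb2, Erbb3 and Erbb4), and the neuregulin genes Nrg1 and Nrg4. They were taken by symbol from the deposited count table, and all 8 were found among its 16764 symbols. RNA was sequenced from 3 groups of Brown Norway rat male germ cells, with 2 libraries in each. Undifferentiated spermatogonia (USg) were cells of a primary rat germline line expanded in SG medium, which contains GDNF and FGF per the labels. They were sampled at 0 h in SD medium and, per the protocol, on day 0 before plating on laminin. Sample titles carry the same time mark for this group and the next, so the time of USg is given here as the other labels have it. Differentiating spermatogonia (DSg) were the same line after 120 h in SD medium, to which neuregulin-1 and all-trans-retinoic acid are added, on day 7 after plating on laminin. The spermatocyte-enriched group (Spc) was a primary culture of testis germ cells that did not bind laminin, selected negatively on plastic, collagen-I and laminin and kept 2.5 days in a serum medium (10% FBS in DMEM:Ham's F12). Another 2 samples of chromatin precipitated with a Foxa2 antibody were not analysed here. Spc differed from the line in source, selection and medium as well as stage, and DSg differed from USg in medium, laminin and time, so that these factors cannot be told apart. The libraries of a group are called replicates in the labels, and both USg and DSg came from 1 line, so the p-values measure the spread between these libraries, which may be technical.

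Kit is the receptor of stem cell factor, the product of Kitlg, which Sertoli cells present to germ cells in the testis. Receptor and ligand are known for their need in the survival and division of differentiating spermatogonia, and Kit is in wide use as a marker of that stage. The ErbB receptors pair with each other when a ligand of the EGF family binds: EGFR takes EGF, TGF-alpha and related ligands, ERBB3 and ERBB4 take neuregulins, ERBB2 has no ligand of its own and serves as a partner, and ERBB3 has little kinase activity and signals through its partners. Both receptor families feed the Ras-MAPK and PI3K-Akt routes.

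Of the 8 genes, 6 had an entry in the RefSeq promoter table (GRCr8). Of the genes that rose in DSg, described below, Kit had one, and its upstream sequence is shown because SD medium holds a ligand of a nuclear receptor and because Kit changed most in it. The window of 250 bases before the listed start was searched on both strands for an E-box (CANNTG), a nuclear receptor motif (AGGTCA) and a GC box (GGGCGG). The E-box occurred once, 13 bases before the listed start, and 65.2% of 27457 promoters of the same length held it. That match in Kit lies within the annotated bounds of the gene, so the stretch printed below does not include it. The GC box also occurred once, 119 bases before the start, and 32.4% of promoters held it. The receptor motif had no match in the window, against 13.7% of promoters with a match, which says only that these letters are not there. The printed stretch is the 167 bases of that window outside the annotated bounds of the gene, at chr14:32978896-32979062 on the minus strand of GRCr8, 5′ to 3′, with the GC box in capitals, and 70.1% of it is G or C.
Kit upstream: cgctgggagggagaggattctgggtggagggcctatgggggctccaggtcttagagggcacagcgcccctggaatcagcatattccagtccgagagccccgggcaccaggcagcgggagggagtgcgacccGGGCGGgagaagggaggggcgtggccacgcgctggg

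Total counts per library ranged from 2657291 to 5697165. CPM is used for the count normalised to library depth and scaled by TMM. Summed markers of undifferentiated spermatogonia were highest in USg and those of spermatocytes in Spc. The spermatocyte sums of USg and DSg overlapped, and no list of differentiating spermatogonia markers was summed. Most marker lists of other testis cells, given below, also had their highest sums in Spc. The summed level of 13 markers of undifferentiated spermatogonia was 2021 to 2399 CPM in USg, 399.6 to 434 in DSg and 289.6 to 299.8 in Spc. That of 14 spermatocyte markers was 9596 to 10406 in Spc against 705 to 1457 in the other groups. Single markers of undifferentiated spermatogonia did not all follow the order of their sum. At an edgeR adjusted p under 0.05, 1 of the 13 rose and 10 fell in Spc against USg, beside 17.9% and 16.6% of all genes. In Spc against DSg, 2 rose and 6 fell, beside 14.8% and 11.7%. Id4 was among those that rose against DSg (log2 fold change 2.97 ± 0.36, SE; edgeR adjusted p = 7.82e-04).  The share of ribosomal RNA genes was 7.81% in USg 1, 12.4% in DSg 1 and at most 0.734% in the other libraries. In DSg 2, 96.7% of 1044 olfactory receptor genes had a count, at a mean of 1.60 CPM of the whole library per gene, against 0.121 to 0.277 in the other 5 libraries. Over all tested genes, replicates differed on the log2 scale with an SD of 0.95 in USg, 0.947 in DSg and 0.434 in Spc.

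Of the 8 genes, 7 passed the filter on low counts and were tested among 12210 genes. In DSg against USg, 2 of the 7 rose (Kit and Erbb3) and 0 fell, while over all genes tested 0.565% rose and 1.92% fell. In Spc against USg, 2 rose (Kitlg and Egfr) and 1 fell (Erbb2), against 17.9% and 16.6% of all genes. In Spc against DSg, 1 rose (Egfr) and 4 fell (Kit, Erbb3, Erbb2 and Nrg1), against 14.8% and 11.7% of all genes. Each group stands in 2 of the 3 comparisons, which therefore share libraries and are not independent. With 7 genes these counts are small, and they describe this group of genes only. A call is an edgeR adjusted p under 0.05 over all genes tested, two-sided. The overall split of calls in Spc against DSg moved with scaling, from 1806 higher and 1433 lower to 1486 and 1925 with upper quartile and 1407 and 1681 with total-count scaling, while the counts for the 7 genes did not.

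**Figure D1:**
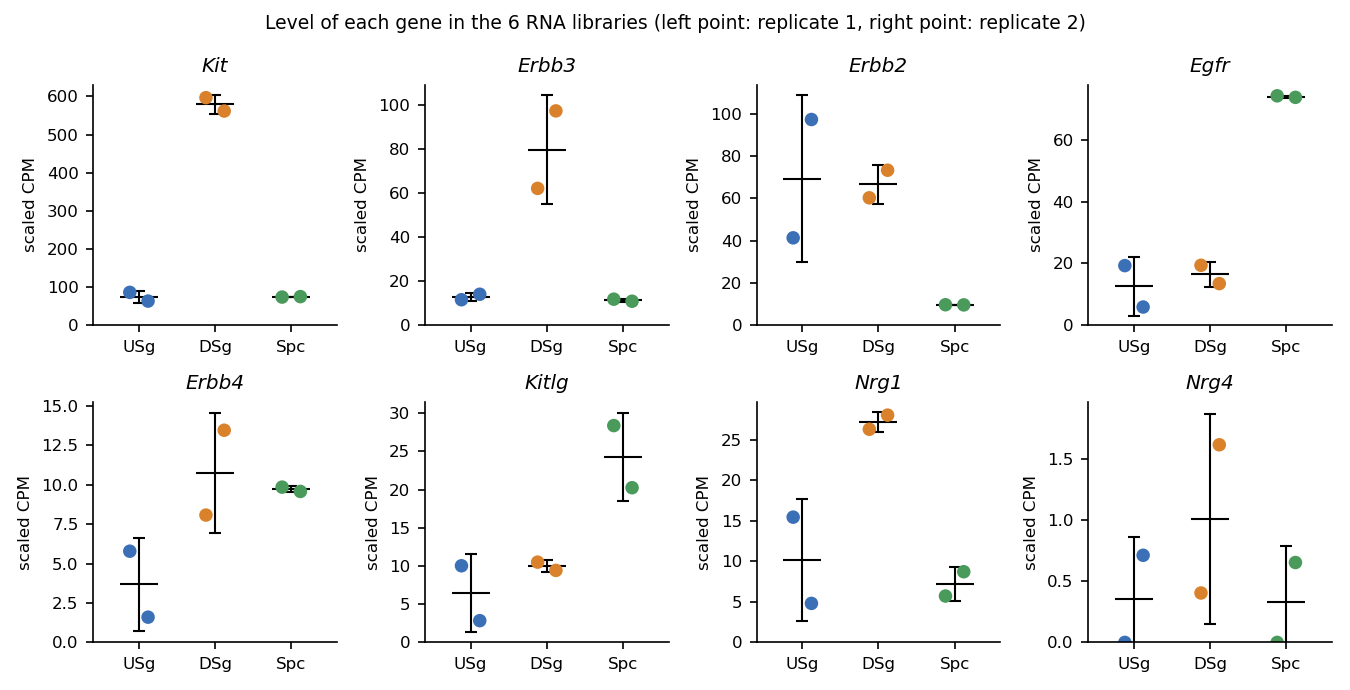
Level of each of the 8 genes in scaled CPM (vertical axes, each from 0) in USg, DSg and Spc. Points are libraries, the horizontal bar is the mean and the error bar the SD of 2 libraries, and error bars below 0 are cut at the axis. Kit and Erbb3 are high in both DSg libraries, Egfr in both Spc libraries, and Erbb2 is low in both Spc libraries.

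Kit was high in DSg and low in both other groups. It stood at 86.0 and 63.2 CPM in USg 1 and 2, at 597 and 562 CPM in DSg 1 and 2, and at 73.7 and 74.9 CPM in Spc 1 and 2. The DSg libraries were far above all others and did not overlap with them, and the range of Spc lay within that of USg. The rise in DSg was 7.78-fold (log2 fold change 2.96 ± 0.31, SE; edgeR adjusted p = 0.00556), and the drop from DSg to Spc was of the same size (-2.96 ± 0.31, adjusted p = 4.59e-04). Spc and USg differed by -0.0025 ± 0.294 on the log2 scale (adjusted p = 0.996), and this sign turned with RLE scaling (9.0e-04). The call in DSg against USg ended without DSg 1 (log2 fold change 2.73) or DSg 2 (3.01), where no gene at all was called in that comparison. In bulk RNA, fewer cells of a type and less RNA per cell cannot be told apart. The table counts reads per gene, so the truncated form of Kit made in late germ cells was not separated from the full receptor. Mast cells also express Kit, and their markers Cpa3, Mcpt1, Tpsab1, Ms4a2 and Cma1 had at most 3 counts in DSg 1 and 6 to 13 in DSg 2. In DSg 2 nearly all olfactory receptor genes also had counts, and the part of that background in these markers was not tested. The part of mast cells or other somatic cells in the level of Kit was not tested either, in any group. Marker sums of such cells, most of them highest in Spc, are given below.

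Erbb3, the neuregulin receptor with weak kinase activity, followed the same order. It stood at 11.6 and 14.1 CPM in USg, 62.2 and 97.5 in DSg, and 11.8 and 10.9 in Spc. Both DSg libraries were above all 4 others, with a wider gap between replicates (1.57-fold) than for Kit (1.06-fold). Erbb3 rose 6.19-fold in DSg (2.63 ± 0.38, edgeR adjusted p = 0.0140) and was lower in Spc than in DSg (-2.81 ± 0.38, adjusted p = 0.00134). Spc and USg differed by -0.18 ± 0.38 (adjusted p = 0.729). The call in DSg ended without DSg 1 (2.72, adjusted p = 0.0987) or DSg 2 (2.27, 0.175).

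Erbb2, the partner receptor without a ligand, did not follow Erbb3. Its level was 41.3 and 97.2 CPM in USg and 60.2 and 73.2 in DSg, so that the DSg libraries lay between those of USg. In Spc it was 9.66 and 9.58 CPM, below all libraries of the line. The difference between DSg and USg was -0.06 ± 0.42 (edgeR adjusted p = 0.954), and its sign turned with upper quartile (0.11) and total-count scaling (0.10). Erbb2 fell 7.23-fold in Spc against USg (-2.85 ± 0.46, adjusted p = 0.00199) and 6.92-fold against DSg (-2.79 ± 0.46, adjusted p = 0.00326). Both calls held in all 17 alternatives, and the value against USg was -2.08 without USg 2. In DSg, a raised level of Erbb3 was measured beside a level of Erbb2 within the range of USg, and in Spc Erbb2 was reduced while Erbb3 did not differ from USg past the threshold.

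Egfr, the receptor of EGF and TGF-alpha, had the opposite pattern. It was measured at 19.3 and 5.88 CPM in USg, 19.4 and 13.5 in DSg, and 74.3 and 73.8 in Spc. The Spc libraries were close to each other and above all 4 of the line, whose groups overlapped (DSg against USg 0.43 ± 0.54, edgeR adjusted p = 0.70). Egfr rose 6.11-fold in Spc against USg (2.61 ± 0.54, adjusted p = 0.00613) and 4.53-fold against DSg (2.18 ± 0.53, adjusted p = 0.0163). The value against USg was 3.61 without USg 1 and 1.95 without USg 2, and the call against DSg ended without DSg 1 (2.64, adjusted p = 0.0549) or DSg 2 (1.93, 0.118).

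Erbb4, the neuregulin receptor with full kinase activity, was measured by few reads. It had 15 and 9 counts in USg, 20 and 50 in DSg, and 50 and 44 in Spc, which is 5.79 and 1.60, 8.08 and 13.5, and 9.85 and 9.58 CPM. Both USg libraries were below the other 4, and the Spc libraries lay between those of DSg. No difference passed the threshold (1.66 ± 0.68 for DSg against USg, edgeR adjusted p = 0.233; 1.50 ± 0.67 for Spc against USg, 0.115; -0.16 ± 0.62 for Spc against DSg, 0.868). Without USg 1, the differences from USg were 2.59 in DSg and 2.54 in Spc. USg was then 1 library with 9 counts of Erbb4 and no spread of its own. The DSg library with more Erbb4 was DSg 2, in which olfactory receptor genes stood at 1.60 CPM each. Erbb4 has a much longer transcript than those genes, and the part of that background in its level was not tested. Without DSg 2 the difference between DSg and USg was 1.26 (adjusted p = 0.483).

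**Figure D2:**
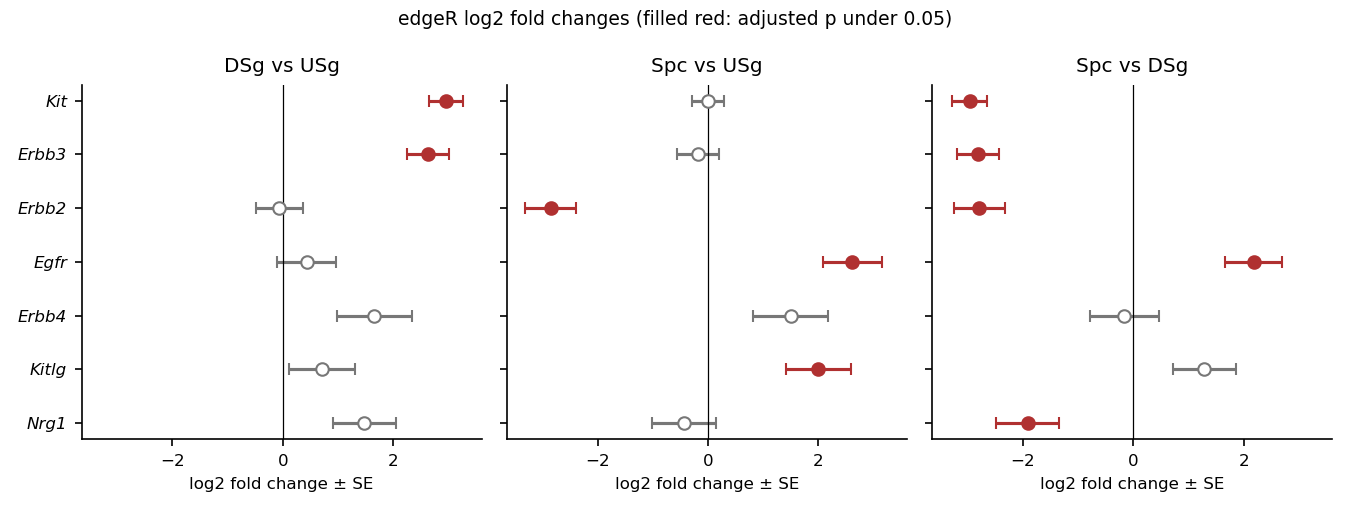
Log2 fold changes with their SE (horizontal axis) of the 7 tested genes in the 3 comparisons, where filled red points passed an edgeR adjusted p of 0.05. Kit and Erbb3 lie to the right in DSg vs USg (2.96 and 2.63) and to the left in Spc vs DSg (-2.96 and -2.81), and Erbb2 and Egfr lie on opposite sides in both Spc panels.

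Among the ligands, Kitlg, which encodes stem cell factor, was low in the line. It had 26 and 16 counts in USg, 26 and 35 in DSg, and 144 and 93 in Spc, or 10.0 and 2.85, 10.5 and 9.42, and 28.4 and 20.2 CPM. Both Spc libraries were above all others, and USg 1 lay between the DSg libraries. Kitlg rose 4.00-fold in Spc against USg (2.00 ± 0.59, edgeR adjusted p = 0.0289). That call ended without USg 2 (1.29, adjusted p = 0.0582), without Spc 1 (1.71, 0.115) and in a fit of only the 4 libraries compared (0.0510), and the value was 3.04 without USg 1. Against DSg the difference was 1.29 ± 0.57 (adjusted p = 0.125), and it passed without USg 1 (0.0170) or USg 2 (0.0123), with no filter (0.0312) and in the fit of 4 libraries (0.0255). DSg and USg differed by 0.71 ± 0.60 (adjusted p = 0.558), which turned to -0.074 without USg 2. The membrane-bound and soluble forms that Kitlg encodes were not separated in these counts.

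Of 5 marker lists of other testis cells, 4 had their highest sums in the same libraries as Egfr and Kitlg, and the endothelial list did not. The summed level of 15 Sertoli cell markers was 3055 to 3213 CPM in Spc against 413 to 696 in the other 4 libraries, and none of the 15 was at 0 in Spc. Of 11 peritubular and stromal markers the sum was 2764 to 2900 CPM in Spc against 253 to 528, also with none at 0. Of 9 Leydig cell markers it was 273 to 285 CPM against 6.23 to 33.1, with 0 or 1 marker at 0 in Spc, and Insl3, which defines Leydig cells, had 1 and 0 counts there. Most of that sum came from Star (159 and 169 CPM) and Hsd11b1 (91.2 and 98.8 CPM), and Cyp11a1, the enzyme gene that opens steroid synthesis, was lower in Spc than in DSg (-2.64 ± 0.78, edgeR adjusted p = 0.0356). Cyp11a1 had only 4 to 22 counts in a library, and its call was lost in 8 of 17 alternatives. Of 13 macrophage and mast cell markers it was 78.2 to 97.8 CPM against 10.9 to 46.0, with 2 of 13 at 0 in Spc 1 and 0 in Spc 2. The sum of 6 endothelial markers was lower in Spc, at 36.3 to 48.1 CPM against 63.4 to 213, and 3 of them fell against USg (Pecam1, Vwf and Kdr) while 1 rose (Cdh5). In the testis, Sertoli cells are the known source of stem cell factor, and somatic cells also express Egfr. The part of such cells in the levels of Egfr and Kitlg, or in that of Kit in Spc, was not tested.

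**Figure D3:**
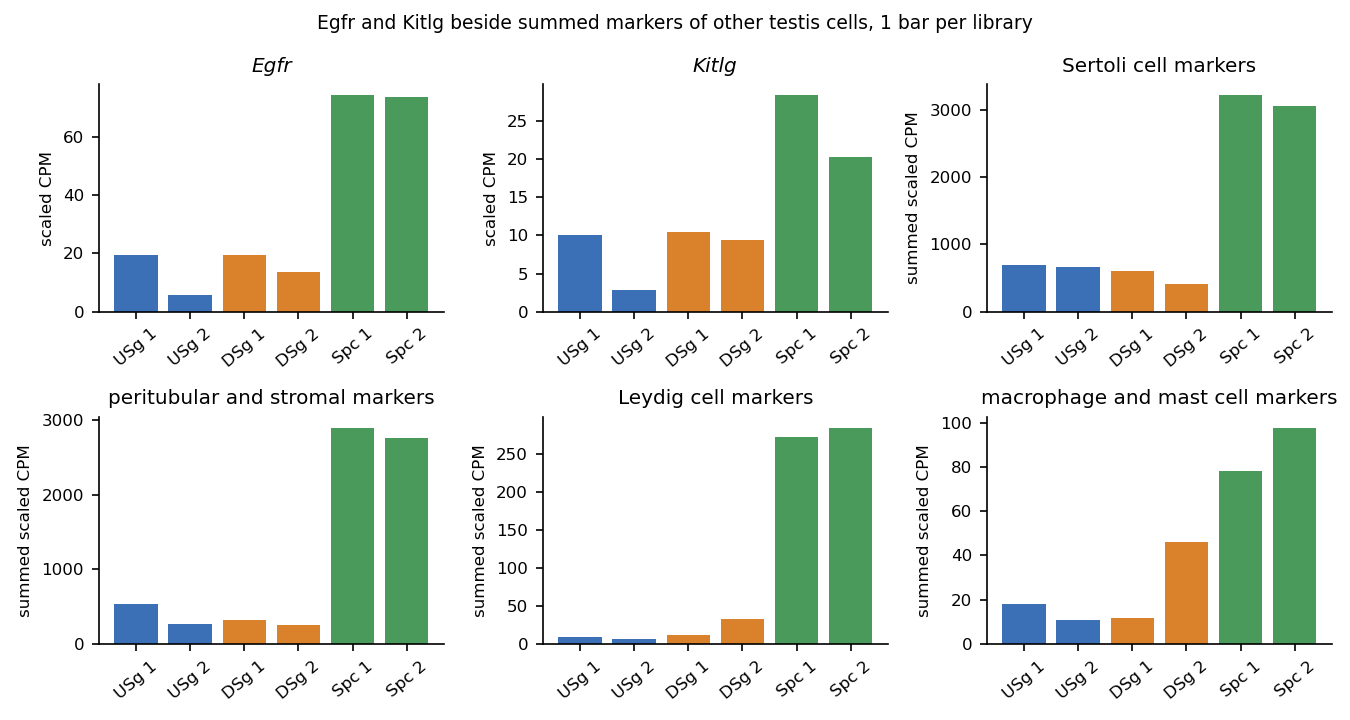
Scaled CPM of Egfr and Kitlg and summed scaled CPM of 4 marker lists (vertical axes), with 1 bar for each library. All 6 panels have their highest bars in Spc 1 and Spc 2, for example 74.3 and 73.8 CPM for Egfr and 3213 and 3055 for Sertoli cell markers.

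Nrg1, whose protein is an added factor of SD medium, was also measured as the cells' own RNA. It had 40 and 27 counts in USg, 65 and 104 in DSg, and 29 and 40 in Spc, or 15.4 and 4.81, 26.3 and 28.0, and 5.72 and 8.71 CPM. Both DSg libraries were above all 4 others, and the range of Spc lay within that of USg. The difference between DSg and USg was 1.48 ± 0.57 (edgeR adjusted p = 0.208), and it was 2.36 without USg 1, with 1 USg library left. Nrg1 fell 3.76-fold from DSg to Spc (-1.91 ± 0.57, adjusted p = 0.0364), a call that ended without DSg 1 (0.111), DSg 2 (0.120), Spc 1 (0.191) or Spc 2 (0.0508). Spc and USg differed by -0.43 ± 0.58 (adjusted p = 0.588), which turned to 0.53 without USg 1. The many isoforms of Nrg1 were not separated.

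Nrg4, a neuregulin that binds ERBB4, was at the limit of detection. It had 0 and 4 counts in USg, 1 and 6 in DSg, and 0 and 3 in Spc, and did not pass the filter. A count of 0 allows up to 1.12 CPM of the whole library in USg 1 and 0.566 in Spc 1 (3 counts, counting error only). The 6 counts in DSg 2 were at 1.62 CPM, in the library in which nearly all olfactory receptor genes had counts, and the part of that background was not tested. No difference was detectable at this depth.

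Erbb4, Kitlg, Egfr and Nrg1 differed between the USg replicates in the same direction. In USg 1 against USg 2, Erbb4 was 3.61-fold, Kitlg 3.52-fold, Egfr 3.28-fold and Nrg1 3.21-fold higher, whereas Erbb2 was 2.36-fold lower (0.425 of the level in USg 2) and Kit and Erbb3 were within 1.36-fold. USg 1 held 7.81% of ribosomal RNA counts and USg 2 0.00377%. Marker sums in USg 1 were 528 against 267 CPM in USg 2 for stromal cells and 696 against 670 for Sertoli cells. They were 1265 against 705 for spermatocytes, 213 against 142 for endothelial cells and 18.1 against 10.9 for macrophages and mast cells. Leydig markers came to 8.87 against 6.23, and only undifferentiated spermatogonia markers were lower in USg 1, at 2021 against 2399. In the Spc replicates no tested gene of the group differed by more than 1.52-fold. In DSg against USg the SE of the log2 fold change was 0.54 to 0.68 for these 4 genes and 0.31 for Kit. The part of the ribosomal RNA share in these differences was not tested, and with the ribosomal RNA genes left out no call of the 7 genes changed.

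Other ligands of the EGF family were mostly near the limit of detection. Of 8 in the table, 3 were tested (Tgfa, Hbegf and Nrg2), and Egf, Areg, Ereg, Btc and Epgn had at most 12 counts in any library. Tgfa, the gene of TGF-alpha, stood at 4.24 and 1.60 CPM in USg, 1.62 and 5.92 in DSg, and 58.3 and 36.4 in Spc, so that Spc was above the line in both libraries. It rose against USg (4.13 ± 0.67, edgeR adjusted p = 0.00204) and against DSg (3.57 ± 0.64, adjusted p = 0.00484). Hbegf, another EGFR ligand gene, stood at 6.56 and 2.14 CPM in USg, 7.27 and 6.19 in DSg, and 14.2 and 16.5 in Spc, and rose against USg (1.90 ± 0.60, adjusted p = 0.0381). The call of Hbegf ended in 5 of 17 alternatives (highest adjusted p 0.176): under upper quartile and total-count scaling, and in the absence of USg 2, of Spc 1 or of Spc 2. In Spc, Egfr and 2 of its ligand genes were higher than in USg, beside the somatic markers given above. Nrg2 differed by 0.90 ± 0.83 between DSg and USg (adjusted p = 0.589).

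Among genes of ligand release, 8 were tested. In DSg against USg, 0 rose and 1 fell, beside 0.565% and 1.92% of all genes, and the median was -0.56 beside 0.0068 over all genes. The falling gene was the matrix metalloproteinase gene Mmp9 (-2.72 ± 0.48, edgeR adjusted p = 0.0296), which lost its call under total-count scaling, when only 4 libraries were fitted, and without DSg 1 or DSg 2 (highest adjusted p 0.127). Without passing the threshold, Adam19 differed by -1.45 ± 0.35 (adjusted p = 0.071), Spint2, a protease inhibitor gene, by -1.21 ± 0.38 (0.141) and Bace1, a protease gene, by 1.38 ± 0.56 (0.230). Adam17, the main sheddase of EGFR ligands, differed by -0.40 ± 0.29 (adjusted p = 0.489). In Spc, Adam19, a protease that can process neuregulin, was higher than in USg (1.08 ± 0.34, adjusted p = 0.0369) and DSg (2.52 ± 0.36, adjusted p = 0.00164), and Rhbdf1, an inactive rhomboid that guides ADAM17, was lower than in USg (-1.62 ± 0.55, adjusted p = 0.0497). Mmp9 was also higher in Spc than in DSg (2.59 ± 0.48, adjusted p = 0.00534). The calls of Adam19 and Rhbdf1 against USg each ended in 7 of 17 alternatives, among them the absence of USg 2 and of Spc 2, with highest adjusted p of 0.295 and 0.271.

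In DSg against USg, where 2.48% of all genes were called, none was called among 26 tested genes of adaptors and the Ras-MAPK route, 25 of the PI3K-Akt route, 16 Src kinase, phospholipase and STAT genes or 14 of receptor ubiquitination and trafficking. Against that low background these counts of 0 are no result about the routes. The lists had median log2 fold changes of -0.08, 0.10, 0.11 and -0.12, beside 0.0068 over all genes. Each of these medians was smaller than the shift of all genes under upper quartile (0.152) or total-count scaling (0.156), so they carry no direction. Of 29 feedback inhibitors and phosphatases tested, 0 rose and 4 fell in DSg, beside 0.565% and 1.92% of all genes. These were the Sprouty gene Spry4 (317 ± 50.9 to 36.5 ± 0.182 CPM, mean ± SD; -3.12 ± 0.32, edgeR adjusted p = 0.00556), the MAP kinase phosphatase genes Dusp4 (-3.54 ± 0.42, adjusted p = 0.00697) and Dusp6 (-3.03 ± 0.46, 0.0178), and the receptor phosphatase gene Ptprk, whose product acts on EGFR (502 ± 28.0 to 113 ± 27.4 CPM; -2.16 ± 0.31, 0.0140). Spry4, Dusp4 and Dusp6 are also known as feedback genes of FGF signalling, and SG medium contains GDNF and FGF per the labels. The part of these factors in the fall was not tested, and medium, laminin and time cannot be told apart here. All 4 calls ended without DSg 1 or DSg 2, as did every call of that comparison.

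For the following counts in Spc, the background is that 34.5% of all genes were called against USg (17.9% higher, 16.6% lower) and 26.5% against DSg (14.8% higher, 11.7% lower), so that lists with a share near these do not stand apart. Of the 26 adaptor and Ras-MAPK genes, 6 rose and 7 fell against USg, and 2 rose (Gab2 and Grb10) and 5 fell (Rps6ka1, Shc3, Grb7, Hras and Ksr1) against DSg. Rps6ka1, a kinase below ERK, fell (-3.77 ± 0.34 against USg, edgeR adjusted p = 2.23e-04), as did the adaptor gene Shc3 (-2.69 ± 0.42, 0.00181), whereas the adaptor gene Gab2 rose (45.0 ± 13.4 to 190 ± 38.9 CPM; 2.07 ± 0.38, 0.00351) and Grb10 rose against DSg (1.25 ± 0.29, 0.0146). Of the 25 PI3K-Akt genes, 2 rose (Pik3r3 and Pdpk1) and 10 fell against USg, and 1 rose (Akt2) and 7 fell against DSg. The falling genes included the catalytic subunit gene Pik3cd (176 ± 21.5 to 14.3 ± 3.24 CPM; -3.62 ± 0.38, 3.08e-04), the PI3K adaptor gene Pik3ap1 (-3.65 ± 0.37, 2.86e-04), the Akt target Foxo1 (-2.51 ± 0.29, 4.54e-04) and, against DSg, the regulatory subunit gene Pik3r1 (-2.04 ± 0.32, 0.00275). The median of this list was -0.36 against USg and -0.41 against DSg, with -0.04 and -0.03 over all genes. Kit signals through PI3K in germ cells, and both Kit and the PI3K genes Pik3cd, Pik3ap1 and Pik3r1 were lower in Spc than in DSg, while Kit did not differ between Spc and USg past the threshold and Pik3cd and Pik3ap1 did. A link between Kit and these genes was not tested.

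Of the 16 Src, phospholipase C and STAT genes, 2 rose (Prkcb and Stat3) and 3 fell (Plcg2, Fyn and Stat5b) in Spc against USg, and 3 fell (Plcg2, Fyn and Lyn) against DSg, where Prkcb (2.77 ± 0.45, edgeR adjusted p = 0.00307) was among those that rose. Plcg2 (-3.04 ± 0.43, edgeR adjusted p = 0.00105) and the Src-family kinase gene Fyn (-2.01 ± 0.33, 0.00202) fell against USg, the protein kinase C gene Prkcb rose (3.35 ± 0.47, 0.00103), and Stat3 rose against DSg (47.3 ± 6.77 to 262 ± 34.3 CPM; 2.47 ± 0.31, 9.80e-04). Among the 29 feedback inhibitors and phosphatases, 3 rose (Errfi1, Lrrk1 and Socs4) and 11 fell against USg, and 3 rose (Errfi1, Spry4 and Dusp5) and 6 fell against DSg. Errfi1, whose product binds and inhibits the EGFR kinase, was 73.7 and 99.7 CPM in USg, 111 and 109 in DSg, and 602 and 587 in Spc, a rise against USg (2.77 ± 0.31, adjusted p = 3.88e-04) and DSg (2.44 ± 0.30, 9.37e-04) with no overlap. The inhibitor gene Spred2 fell (-3.94 ± 0.35, 2.12e-04), as did Ptprk (-3.29 ± 0.33, 2.65e-04), both against USg, and the receptor phosphatase gene Ptprj fell against DSg (-2.60 ± 0.32, 8.86e-04). Of the 14 genes of ubiquitination and trafficking, 2 rose and 1 fell against USg, no more than the background. They were the deubiquitinase gene Usp8 (1.51 ± 0.28, 0.00386), Itch (1.26 ± 0.35, 0.0225) and Nedd4l (-1.01 ± 0.32, 0.0372). Against DSg, Usp8 rose (1.05 ± 0.28, 0.0230) and Sorl1 fell (-1.72 ± 0.29, 0.00387). The calls of Usp8 in both comparisons, and of Itch, Nedd4l, Sorl1 and Grb10, ended when Spc 1 or Spc 2 was left out. That of Itch (highest adjusted p 0.166) also ended without USg 2, that of Nedd4l (0.361) without USg 1 and with no filter, and those of Usp8 (0.256) and Grb10 (0.237) against DSg without DSg 1 or DSg 2. Sorl1 reached 0.113, and Pik3r1 0.0882 without Spc 1.

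**Figure D4:**
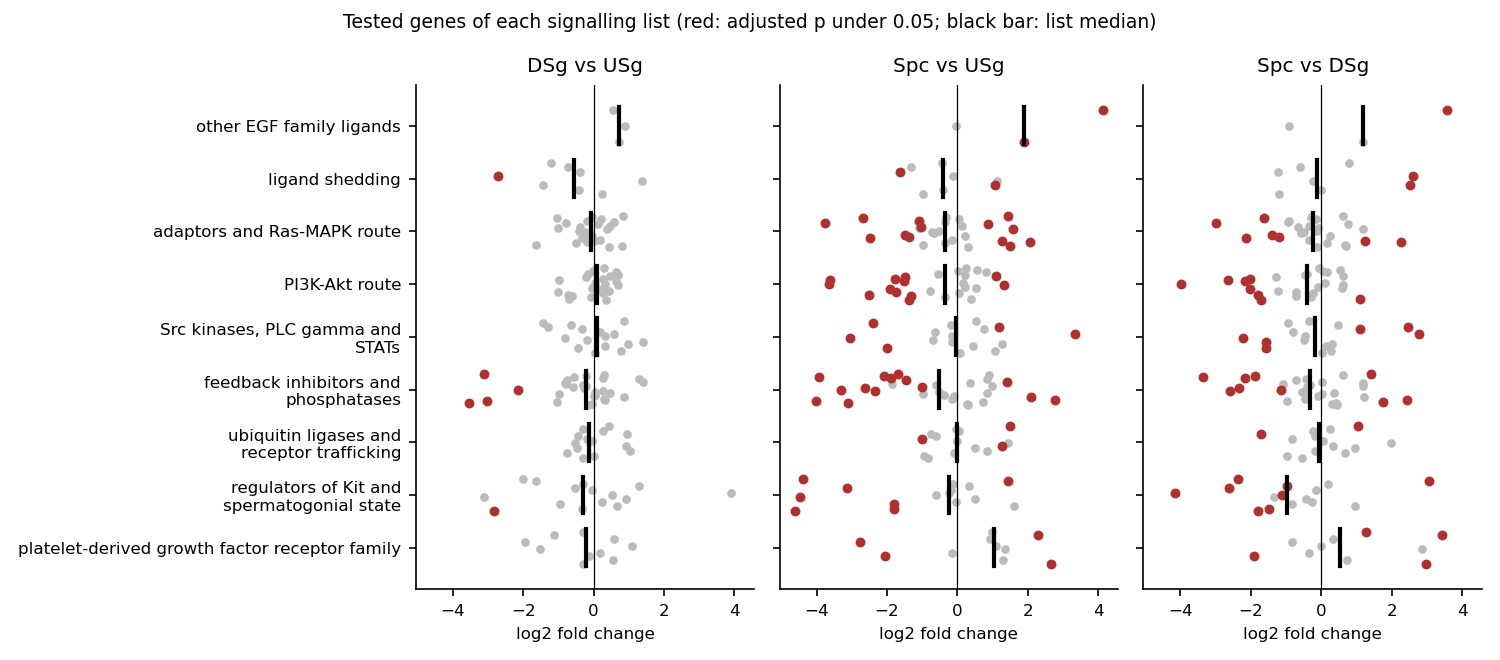
Log2 fold changes (horizontal axis) of the tested genes of 9 signalling lists in the 3 comparisons, 1 point for each gene, in red where the edgeR adjusted p was under 0.05, with a black bar at the list's median. In DSg vs USg the red points are few and all on the left, including 4 feedback inhibitors and phosphatases, and in both Spc panels they lie on both sides.

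Transcription factors tied to Kit and to the state of spermatogonia moved unevenly. Of 15 tested, 0 rose and 1 fell in DSg, beside 0.565% and 1.92% of all genes. It was Bcl6b, a GDNF-responsive factor (-2.83 ± 0.46, edgeR adjusted p = 0.0229), a call that ended without DSg 1 or DSg 2 (highest adjusted p 0.212). Zbtb16, which is known to repress Kit, stood at 159 and 279 CPM in USg, 27.1 and 81.3 in DSg, and 8.87 and 12.2 in Spc, with no overlap between any of the groups. Its difference between DSg and USg was -2.01 ± 0.52 (adjusted p = 0.0864), and it fell against USg in Spc (-4.38 ± 0.59, 8.76e-04), where Kit did not differ from USg past the threshold. The part of Zbtb16 in the level of Kit was not tested. Sohlh2, a known activator of Kit, differed by 1.31 ± 0.30 between DSg and USg (adjusted p = 0.0626), and its partner Sohlh1 by -0.52 ± 0.52 (0.626). The retinoic acid receptor gene Rarb was 6.17 and 0.534 CPM in USg, 54.1 and 33.1 in DSg, and 1.38 and 3.48 in Spc, the same order as Kit. Its difference in DSg missed the threshold (3.91 ± 0.88, adjusted p = 0.0569) and it fell from DSg to Spc (-4.16 ± 0.87, 0.00893), a call that ended without DSg 1 (adjusted p = 0.0601). In Spc, 1 of the 15 rose and 6 fell against USg, beside 17.9% and 16.6% of all genes, and 1 rose and 7 fell against DSg, beside 14.8% and 11.7%. Sohlh1 fell in both (-3.13 ± 0.57, 0.00365, and -2.61 ± 0.57, 0.0106), and Tal1 rose against DSg (3.05 ± 0.50, 0.00320). The call of Sohlh1 against DSg ended without DSg 2 (adjusted p = 0.0696). Tal1, with Gata2 a known regulator of Kit in blood cells, was also the rising gene against USg (1.43 ± 0.45, 0.0385).

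The relatives of Kit in the platelet-derived growth factor receptor family and their ligands held 0 called genes of 10 in DSg against USg, where 2.48% of all genes were called. In Spc, 2 rose and 2 fell against USg, near the background of 17.9% and 16.6%. Pdgfra, a receptor of mesenchymal and Leydig lineage cells, was 95.7 and 69.6 CPM in USg, 47.7 and 28.0 in DSg, and 415 and 393 in Spc, and rose (2.29 ± 0.36, edgeR adjusted p = 0.00171). Csf1, a macrophage growth factor gene, rose (2.66 ± 0.45, 0.00245), and Pdgfb (-2.77 ± 0.44, 0.00182) and Flt3 (-2.06 ± 0.61, 0.0294) fell. Against DSg, 3 rose and 1 fell, beside 14.8% and 11.7% of all genes, the rising genes being Pdgfra (3.42 ± 0.38, 5.53e-04), Csf1 (2.97 ± 0.46, 0.00241) and Pdgfrb (1.27 ± 0.34, 0.0264), and the falling one Flt3 (-1.92 ± 0.61, 0.0475). The call of Pdgfrb ended in 5 alternatives, among them the absence of DSg 1, Spc 1 or Spc 2 (highest adjusted p 0.217). Egfr, Pdgfra and the stromal markers were high in the same 2 libraries, in which Kit was at 73.7 and 74.9 CPM.

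The genes most like each member were sought by Pearson's r of log2 CPM over the 6 libraries, among 8424 other genes (8425 for Erbb4) with at least 20 CPM in their highest group. The 6 points share 3 groups and the depth of each library, so a high r is a description. Nearest to Kit were Thrb, a thyroid hormone receptor gene (r = 0.996), Plcl2 (0.994) and Cyp26a1, which breaks down retinoic acid (0.991). For Erbb3 they were Foxn3 (0.990), Zswim5 (0.989) and Phlpp2, an Akt phosphatase gene (0.988). For Egfr they were Cep97 (0.999), Tiprl (0.999) and Vcan (0.998), the gene of the matrix proteoglycan versican, with means of 27.8, 44.3 and 327 CPM in USg, DSg and Spc. Nearest to Erbb2 were Irs1, an adaptor of the insulin receptor (0.997), Man2b2 (0.997) and Impdh1 (0.996). Nearest to Kitlg were Trim37 (0.992), Ttc39b (0.992) and Tcaim (0.990). Nrg1 was nearest to Ahcyl1 (0.991), Icos (0.989) and Zfp354c (0.989), and Erbb4 to Spg11 (0.972), Ube4a (0.970) and Ankhd1 (0.967).

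Setting the receptors and ligands side by side, the mean levels of the 3 groups were ordered as follows. Kit and Erbb3 were highest in DSg, and their USg and Spc levels did not differ past the threshold. Nrg1 was higher in DSg than in Spc, and USg could not be ordered against either. Erbb2 was higher in both groups of the line than in Spc, and USg and DSg could not be ordered. Egfr was highest in Spc, with USg and DSg not ordered. Kitlg was higher in Spc than in USg, and DSg could not be ordered against either. For Erbb4 no difference passed the threshold, although both USg libraries lay below the other 4, and Nrg4 was not tested. The 8 genes were not ranked against each other by level, since the counted length of each is not given in the sources used here.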

How the data were processed

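RNA from 6 libraries (USg, DSg and Spc, 2 each) was analysed. The deposited table holds whole-number read counts per gene symbol with no normalization, as its values show. Per the submitters' processing notes, the tools included featureCounts with Subread 1.4.6, HOMER, STAR 2.5.3a, Picard 1.127, edgeR 3.2.4 and Bowtie2 2.2.3, and the builds were rn5 and rn6, with no role for each. The sources used here name no annotation or strand setting for these counts, so reads of overlapping or antisense genes may be shared.

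Of 16764 symbols, 12210 passed filterByExpr of edgeR 4.0.16 (minimum count 10, minimum total 15). They were scaled with TMM and tested with edgeR's quasi-likelihood F-test (R 4.3.3) in 1 fit of all 6 libraries with a shared spread and 3 residual degrees of freedom. Benjamini-Hochberg adjustment ran over all 12210 genes. An SE is the size of the log2 fold change divided by the square root of its F. The script was tested on simulated counts drawn independently for each gene, without library effects such as the ribosomal RNA share. That checks the code and not the calls made here. With 2 libraries in each group, precision is limited by replicates, and for genes with few counts by depth as well.

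The genes and lists were chosen with earlier results of these data known. Named pathway genes are, per list and comparison, up to 3 called genes of lowest adjusted p with at least 5 CPM in the higher group. Other genes of the lists, such as Dusp6, Flt3, Sohlh2 and Adam17, and those in brackets after a count, were named after their values were seen. The nearest genes in the likeness search are the 3 of highest r, on log2 of CPM plus 0.5. Alternatives were other scalings, filters, DESeq2 1.42.0, limma-voom (limma 3.58.1), fits of 4 libraries, a replicate block, and leaving out each library or the ribosomal RNA genes. Where 1 library is left out, its group keeps 1 library, and the adjusted p then holds no spread within that group. Leaving out USg 1 and DSg 1 together was added after the data were seen.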

Additional observations from a re-analysis of the deposited data

How the results depend on the processing

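Of 21 log2 fold changes of the 7 tested genes, 10 were called. Of these, 5 kept direction and call in all 17 alternatives: Egfr and Erbb2 in Spc against USg, and Kit, Erbb3 and Erbb2 in Spc against DSg. The other 5 kept their direction and lost the call in at least 1, as given with each gene, and of the 11 not called, 6 passed in at least 1.
Among the 7 genes and the named pathway genes, the sign turned only in differences of the 7 that were not called. For Kit in Spc against USg the value was 9.0e-04 with RLE scaling, 0.0021 with DESeq2, 0.027 with limma-voom and 0.20 without USg 1 and DSg 1 together, and leaving out 1 library gave -0.20 to 0.19. For Erbb2 in DSg against USg it was 0.11 with upper quartile scaling, 0.10 with total-count scaling and 0.025 with limma-voom, and -0.68 to 0.63 with 1 library left out. For Erbb4 in Spc against DSg it was 0.022 with no filter and -0.29 to 0.26 with 1 library left out. Nrg1 in Spc against USg came to 0.54 without USg 1 and DSg 1 together, and ranged from -1.08 to 0.53. In DSg against USg, Kitlg ranged from -0.074 to 1.66 and Egfr from -0.29 to 1.34. The cause was not tested.

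Over all genes, the calls in DSg against USg, 69 higher and 234 lower, became 230 and 518 with DESeq2, 189 and 855 with no filter, and 10 and 80 with only the 4 libraries compared, and 141 were lower with total-count scaling. Leaving out 1 library gave 0 to 317 higher and 0 to 1184 lower, with 0 of each in the absence of DSg 1 or DSg 2, and 0 to 4 of the 7 genes higher. Spc against USg ranged from 1306 to 2288 higher and 922 to 2274 lower, with 1 to 3 of the 7 genes higher and 1 lower, and 1 was higher in the fit of 4 libraries. Spc against DSg ranged from 1168 to 2547 higher and 466 to 1742 lower, with 0 to 2 of the 7 genes higher and 3 to 4 lower. In that comparison 2152 genes were lower in the fit of 4 libraries, and 2 of the 7 were higher there, with no filter, and without USg 1 and DSg 1 together.

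Leaving out USg 1 and DSg 1 together, the libraries with most ribosomal RNA, was chosen after seeing the data. It leaves 1 library in each of those groups, which is then assumed to vary like Spc. It called 2992 higher and 3335 lower in DSg against USg, with 6 of the 7 genes higher, 4081 and 4165 in Spc against USg, and 4115 and 4177 in Spc against DSg.

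With a replicate block, 168 genes were higher and 436 lower in DSg against USg, the value of Erbb2 there was 0.017 and that of Kit in Spc against USg 0.0091, and no call of the 7 genes changed. The replicate numbers are not shown to pair the libraries: deviations of same-numbered libraries correlated by 0.25 between USg and DSg, -0.27 between USg and Spc and 0.01 between DSg and Spc over genes. For Erbb4, Kitlg, Nrg1 and Nrg4, at most 144 counts in a library limit what can be seen.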
